A study of Oryctolagus cuniculus with 6 samples.

Results

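The genes described here were 10 genes of retinal pigment epithelium identity and melanin synthesis, taken by symbol from a table of 28788 genes. They were the transcription factor MITF, the melanin enzymes TYR, TYRP1 and DCT, the melanosome proteins PMEL, MLANA and SLC45A2, the channel BEST1, and the secreted proteins TTR and SERPINF1. All 10 were found in the files. RNA was measured in retina from 3 samples of normal rabbits and from 3 samples of a rabbit model of proliferative vitreoretinopathy (PVR). In the PVR group the sclera of adult rabbits was punctured, some vitreous was drawn off, and platelet-rich plasma was injected in its place. The normal group is labelled only as normal retina, and a sham operation is not mentioned. The strain, the coat colour and the time after injury are not given in the sources used here, nor is it said whether each sample was a separate animal, so the p-values measure the spread between these samples, which may be in part technical.

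The retinal pigment epithelium is the pigmented cell sheet behind the photoreceptors. It makes melanin in organelles called melanosomes, regenerates the visual pigment, moves ions and water, and secretes carrier proteins and growth factors toward the retina and the choroid. MITF is a factor that switches on the genes of the melanin enzymes. Of these enzymes, TYR starts melanin synthesis from tyrosine, and DCT and TYRP1 act on later intermediates. In PVR, pigment epithelial cells can leave their layer and take part in scar-like membranes. A dissected retina can carry varying amounts of this epithelium.

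The 6 libraries held between 31904593 and 43035080 counted reads. All 17 neural retina marker genes that could be matched were tested. Of these, 16 had a lower and 1 a higher fitted level in PVR retina, and 0 passed the threshold given below. Among them SAG, the arrestin of photoreceptors, stood at 1552 ± 279 FPKM (SD, n = 3) in normal retina and 1519 ± 105 FPKM (SD, n = 3) in PVR retina. FPKM, the reads of a gene per kilobase of its length and per fixed number of counted reads, allows levels of different genes to be compared. In normal replicate 2, 9 lens genes took 3.12% of all counts, against 0.00152% and 0.00121% in normal replicates 1 and 3 and between 0.0272% and 0.0308% in PVR retina. This library was also the highest of the 6 for 5 of the 10 members, and PVR replicate 2 was the lowest, alone, for 5, with TYR, TYRP1 and TTR in both sets.

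Across all samples the members spanned a wide range of levels. TTR was the most abundant, with a mean of 55.1 FPKM, followed by TYRP1 with 13.5 FPKM. TYR, MLANA, DCT and MITF came next, with means of 2.54, 2.07, 2.02 and 1.57 FPKM, and their ranges overlapped, so no order among them can be read. BEST1 was lower still, at 0.519 FPKM, below the lowest MITF sample. SERPINF1, SLC45A2 and PMEL had means of 0.395, 0.278 and 0.187 FPKM and overlapped each other. The lowest TYRP1 value, 7.54 FPKM, lay above the highest TYR value, 4.01 FPKM.

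**Figure D1:**
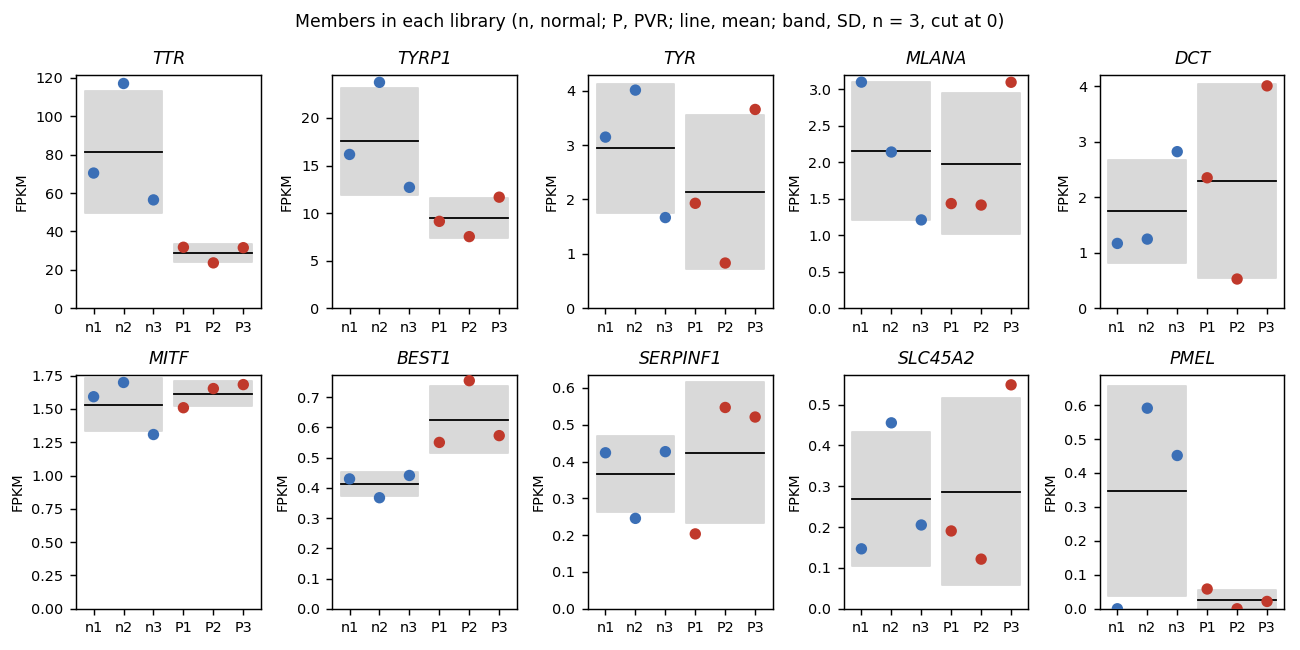
FPKM of the 10 members in each library, with normal samples in blue and PVR samples in red, a line at the group mean and a band of 1 SD (n = 3). The PVR points of TTR and TYRP1 lie below all normal points and those of BEST1 lie above them, while the groups overlap for the other 7 genes.

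TTR and TYRP1 were lower in every PVR sample than in every normal sample, BEST1 was higher, and the other members overlapped between the groups. Differences were tested by edgeR's quasi-likelihood method over 18697 genes, with Benjamini-Hochberg adjustment and a threshold of 0.05. Of the 10 members, 9 passed the filter on low counts and PMEL did not. TTR was the member that passed the threshold, 1 lower and 0 higher, whereas 0.615% of all genes tested were called lower and 1.09% higher. Groups that did not overlap were common: 14.6% of all genes tested had every PVR sample below every normal sample and 13.4% had the reverse, against 2 and 1 of the 9 members. The median log2 fold change of the 9 members was 0.0024, beside -0.0088 for all genes tested.

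Of the secreted products, TTR encodes transthyretin, the carrier of thyroid hormone that also binds the retinol-binding protein. Its FPKM was 70.4, 117 and 56.4 in normal replicates 1, 2 and 3, and 31.8, 23.7 and 31.6 in PVR replicates 1, 2 and 3. The normal samples were spread over 2.07-fold and the PVR samples over 1.34-fold, with a clear gap between the lowest normal and the highest PVR sample. The mean fell from 81.2 ± 31.7 FPKM (SD, n = 3) to 29.0 ± 4.62 FPKM (SD, n = 3), a ratio of 2.80. The fitted log2 fold change was -1.56, with a standard error (SE) of 0.29, a 95% interval from -2.23 to -0.89 and an adjusted p of 0.0478 by edgeR. In bulk tissue, fewer cells of a type and less RNA per cell cannot be told apart. The call by edgeR was close to the threshold. Leaving out any library but normal replicate 3 moved its adjusted p to between 0.0572 and 0.227. Without normal replicate 2, the highest, the log2 fold change was -1.17 (adjusted p = 0.0772 by edgeR). The adjusted p depended on the tool, at 1.675e-07 by DESeq2, which the study used, and 0.0759 by limma-voom.

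SERPINF1 encodes pigment epithelium-derived factor, a secreted inhibitor of vessel growth. It was barely counted, with 28, 17 and 29 reads in normal retina and 11, 30 and 38 in PVR retina. The groups overlapped, and PVR replicate 1 was the lowest of the 6. Its log2 fold change was 0.15 (SE 0.51, 95% interval from -1.03 to 1.34, adjusted p = 0.881 by edgeR), an interval that included 2-fold changes in both directions.

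TYRP1, the tyrosinase-related protein that acts late in the synthesis of brown-black melanin, was the most abundant of the melanin enzymes. Its FPKM was 16.2, 23.7 and 12.7 in normal retina and 9.14, 7.54 and 11.7 in PVR retina. The groups did not overlap, but PVR replicate 3 came close to normal replicate 3. The mean was 17.5 ± 5.64 FPKM (SD, n = 3) in normal retina and 9.45 ± 2.09 FPKM (SD, n = 3) in PVR retina, and the log2 fold change was -0.96 (SE 0.27, 95% interval from -1.59 to -0.34). Its adjusted p was 0.112 by edgeR and 0.00275 by DESeq2, so TYRP1 was called by the second tool only. Without normal replicate 2 the log2 fold change was -0.66 (adjusted p = 0.243 by edgeR).

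TYR, the enzyme that limits the rate of melanin synthesis, varied more within groups than between them. Its FPKM was 3.15, 4.01 and 1.67 in normal retina and 1.93, 0.834 and 3.65 in PVR retina. PVR replicate 3 was the second highest of all samples and PVR replicate 2 the lowest, a spread of 4.38-fold within the PVR group. The log2 fold change was -0.52 (SE 0.55, 95% interval from -1.81 to 0.76, adjusted p = 0.608 by edgeR). Its size rested on single libraries, at -0.21 without normal replicate 2, -0.81 without normal replicate 3, -0.14 without PVR replicate 2 and -1.18 without PVR replicate 3.

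DCT, dopachrome tautomerase, had the widest spread of the enzymes. Its FPKM was 1.17, 1.25 and 2.82 in normal retina and 2.35, 0.530 and 4.004 in PVR retina. The PVR group alone spanned 7.56-fold, from 109 reads in replicate 2 to 1096 in replicate 3. The fitted log2 fold change was 0.35 (SE 0.66, adjusted p = 0.785 by edgeR), and it was -0.35 without PVR replicate 3, 0.82 without PVR replicate 2 and 0.86 without normal replicate 3. The FPKM of TYRP1 per FPKM of DCT was 13.8, 19.0 and 4.51 in normal retina and 3.89, 14.2 and 2.92 in PVR retina, so that normal replicate 3, PVR replicate 1 and PVR replicate 3 carried relatively more DCT whatever their group.

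Among the melanosome proteins, PMEL forms the fibrils on which melanin is laid down. It had 0, 52 and 39 reads in normal retina and 4, 0 and 2 in PVR retina. A count of 0 allows up to 3 reads, or 0.0770 CPM (reads scaled to the library total) in normal replicate 1 and 0.0927 CPM in PVR replicate 2, which covers counting error only. The low level in PVR retina was shared by normal replicate 1, so the groups overlapped. In a fit without the filter the log2 fold change was -3.72 (SE 1.45, adjusted p = 0.23 by edgeR).

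MLANA, a melanosome membrane protein that works with PMEL, had FPKM values of 3.10, 2.14 and 1.21 in normal retina and 1.44, 1.42 and 3.10 in PVR retina. Normal replicate 1 and PVR replicate 3 were nearly equal at the top, and the log2 fold change was -0.18 (SE 0.49, adjusted p = 0.853 by edgeR). SLC45A2, a transporter that helps keep the melanosome at the pH at which TYR works, had 16, 52 and 23 reads in normal retina and 17, 11 and 66 in PVR retina. Its log2 fold change was 0.04 (SE 0.69, adjusted p = 0.983 by edgeR). For both genes the 95% interval included a 2-fold decrease, and for SLC45A2 a 2-fold increase too, reaching from -1.32 to 0.96 for MLANA and from -1.59 to 1.66 for SLC45A2.

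BEST1, a chloride channel of the basal pigment epithelial membrane, was the member with higher values in all PVR samples. Its FPKM was 0.430, 0.367 and 0.441 in normal retina and 0.550, 0.754 and 0.573 in PVR retina. The means were 0.413 ± 0.0396 FPKM (SD, n = 3) and 0.626 ± 0.112 FPKM (SD, n = 3). Its log2 fold change was 0.53 (SE 0.21, 95% interval from 0.03 to 1.03), its adjusted p was 0.215 by edgeR, and it did not pass the threshold in any of the 15 other settings.

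MITF had the narrowest range of the members over the 6 libraries. Its FPKM was 1.59, 1.70 and 1.31 in normal retina and 1.51, 1.65 and 1.68 in PVR retina. The spread was 1.30-fold in the normal group and 1.11-fold in the PVR group, and the groups overlapped. The log2 fold change was 0.0024 (SE 0.15, 95% interval from -0.34 to 0.35, adjusted p = 0.995 by edgeR), so the interval did not reach a change of 2-fold. The counts are per gene, and the transcript forms of MITF that differ between pigment epithelium, melanocytes and other cells cannot be separated.

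**Figure D2:**
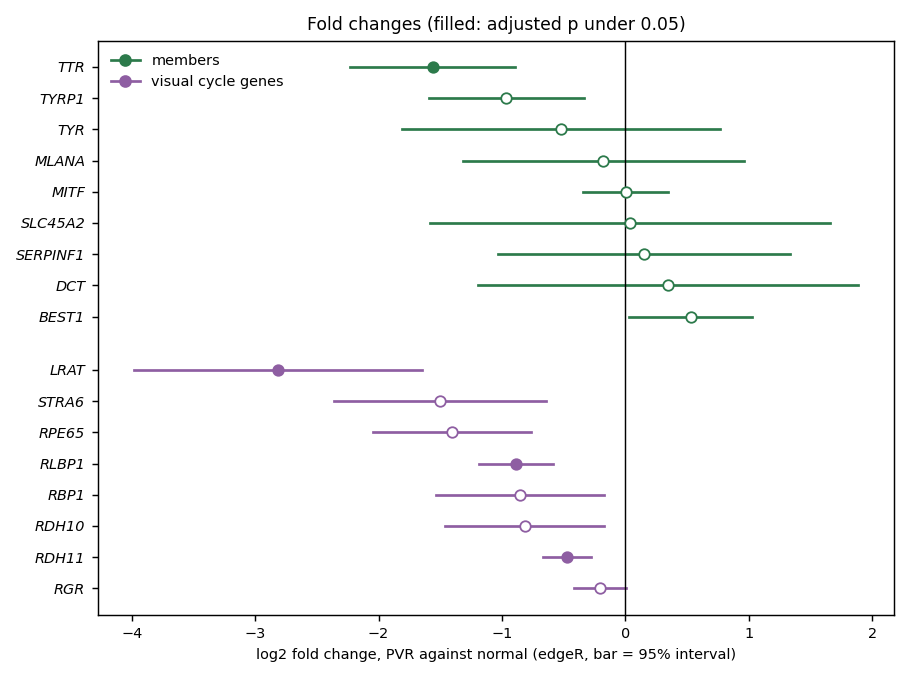
The log2 fold change of PVR against normal with its 95% interval from edgeR, for the 9 members tested (green) and 8 visual cycle genes (purple); filled points have an adjusted p under 0.05. TTR at -1.56 is the filled member, and LRAT, RLBP1 and RDH11 are the filled visual cycle genes.

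Of 9 listed visual cycle genes, the other main set of pigment epithelial genes, 8 passed the filter. Of these 3 fell, 0 rose and 5 did not pass the threshold, whereas 0.615% of all genes tested were called lower and 1.09% higher. All 8 had negative log2 fold changes, with a median of -0.87. In 7 every PVR sample lay below every normal sample, against 14.6% of all genes tested. LRAT, which stores vitamin A as esters, fell from 10.4 ± 6.30 to 1.56 ± 0.323 FPKM (SD, n = 3 in each group), a log2 fold change of -2.82 ± 0.50 (SE, adjusted p = 0.0459 by edgeR). RLBP1, a retinoid carrier of the pigment epithelium and Mueller glia, had a log2 fold change of -0.89 (adjusted p = 0.0294 by edgeR), and RDH11 one of -0.47 (adjusted p = 0.0457 by edgeR). With a library left out, LRAT passed only without normal replicate 3, RDH11 only without PVR replicate 3, and RLBP1 without either, with an adjusted p by edgeR of up to 0.24, 0.262 and 0.188 otherwise. With all libraries kept, the calls of all 3 were lost on both FPKM scales and with the replicate block (adjusted p = 0.114 for LRAT, 0.106 for RDH11 and 0.0856 for RLBP1 by edgeR with the block), and those of LRAT and RDH11 also with limma-voom (adjusted p = 0.131 and 0.0606). RGR, an opsin of the pigment epithelium and among the 2 most abundant genes of the list, had a log2 fold change of -0.21 (adjusted p = 0.242 by edgeR). RPE65, the isomerase found almost exclusively in this epithelium, had FPKM values of 51.0, 64.0 and 28.4 in normal retina and 18.4, 20.6 and 18.2 in PVR retina. The RPE65 groups did not overlap, and its log2 fold change of -1.40 (SE 0.28) had an adjusted p of 0.058 by edgeR. RPE65 was under 0.05 in 3 of the 15 other settings. These were DESeq2 (adjusted p = 7.67e-07), edgeR with no filter on low counts (0.0359) and edgeR without normal replicate 3 (0.00246). The summed FPKM of the 9 genes was between 205 and 295 in normal retina and between 143 and 155 in PVR retina. RLBP1, which Mueller glia carry too, had the highest mean of the list, 64.6 FPKM over all samples. The sum is therefore not a measure of the epithelium alone. The part that the amount of pigment epithelium had in the level of TTR was not tested.

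Since RPE65 marks the epithelium, 7 members were also set against RPE65 in the same library, a comparison chosen after the values were seen. The FPKM of TTR per FPKM of RPE65 was 1.38, 1.83 and 1.99 in normal retina and 1.73, 1.15 and 1.73 in PVR retina. On this scale the groups overlapped, with a difference of -0.18 in the mean log2 ratio (two-sided exact permutation test over the samples, p = 0.5). For TYRP1 the ratios were 0.317, 0.371 and 0.448 in normal retina and 0.497, 0.366 and 0.640 in PVR retina, and the groups overlapped too (exact permutation p = 0.3). TYR had nearly constant ratios of 0.0616, 0.0626 and 0.0588 in the normal samples, whereas in PVR retina they were 0.105, 0.0405 and 0.200. The differences in mean log2 ratio were 0.38 for TYRP1 and 0.64 for TYR, against 0.59 and 1.25 without PVR replicate 2 and 0.19 and 0.0953 without PVR replicate 3.

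Relative to RPE65, MITF, BEST1 and MLANA were higher in every PVR sample. The mean log2 ratio of MITF to RPE65 was 1.33 higher in PVR, that of BEST1 1.84 higher and that of MLANA 1.13 higher. Each had an exact permutation p of 0.1, the smallest that 3 samples against 3 allow, and an adjusted p of 0.233 over the 7 ratios. Without PVR replicate 3 the difference for MLANA was 0.73. DCT stood 1.34 higher with overlapping groups (exact permutation p = 0.2), and this was 0.69 without PVR replicate 3, 2.24 without PVR replicate 2 and 2.08 without normal replicate 3. A ratio of this kind shows unequal change of 2 genes and, alone, not which of them changed. RPE65 was itself lower in every PVR sample, with a log2 fold change of -1.40. A gene at the same level in both groups thus comes out higher as a ratio. Without the ratio, the log2 fold changes by edgeR were 0.0024 for MITF, -0.18 for MLANA, 0.53 for BEST1 and 0.35 for DCT. The permutation p-values therefore do not test these members apart from RPE65. With LRAT as the reference, which was lower in PVR by more than RPE65, the mean log2 ratio of TTR was 1.10 higher in PVR, so the direction for TTR depended on the reference gene.

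**Figure D3:**
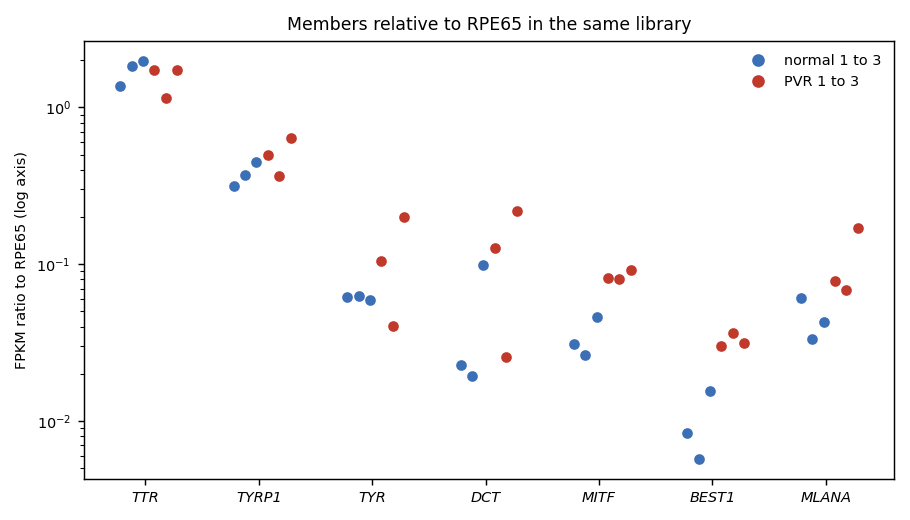
FPKM of 7 members divided by the FPKM of RPE65 in the same library, on a log axis, with normal replicates 1 to 3 in blue and PVR replicates 1 to 3 in red from left to right. TTR and TYRP1 overlap between the groups, and MITF, BEST1 and MLANA lie higher in all 3 PVR samples.

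Of 34 listed genes of melanosome formation, traffic and transport, 31 were matched and tested, of which 1 rose, 0 fell and 30 did not pass the threshold, with a median log2 fold change of -0.03. HPS3, a part of a complex that delivers cargo to the forming melanosome and to other lysosome-related organelles, rose from 14.5 ± 2.28 to 24.8 ± 1.18 FPKM (SD, n = 3 in each group), a log2 fold change of 0.71 ± 0.13 (SE, adjusted p = 0.0475 by edgeR). It was under the threshold in 6 of the 15 other settings, and leaving out any library but normal replicate 3 ended the call (adjusted p up to 0.228 by edgeR). The most abundant genes of the list were MREG, at a log2 fold change of -0.41 (adjusted p = 0.126 by edgeR), and MYO7A, a myosin that is also used by photoreceptors, with -0.0065 (adjusted p = 0.984 by edgeR). Many of the genes of this list serve lysosomes in all cells. Closer to pigment cells, OCA2, the transporter mutated in oculocutaneous albinism, had 70, 104 and 71 reads in normal retina and 73, 28 and 135 in PVR retina. SLC24A5, a melanosome ion exchanger, had 21, 21 and 18 reads in normal retina and 21, 3 and 31 in PVR retina. In both, PVR replicate 2 was the lowest and PVR replicate 3 the highest of the 6, as in DCT.

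Of 22 listed regulators and relatives of MITF, 20 were matched and 18 tested, of which 1 rose and 1 fell, with a median log2 fold change of 0.08. Both are also counted among the melanocyte markers given further on. EDNRB, an endothelin receptor of melanocytes and of reactive glia, rose from 6.13 ± 0.648 to 43.5 ± 5.54 FPKM (SD, n = 3 in each group), with a log2 fold change of 2.75 ± 0.13 (SE, adjusted p = 0.000298 by edgeR). SOX10, a factor of neural crest melanocytes that is also found in oligodendrocytes, fell from 1.64 ± 0.751 to 0.271 ± 0.0627 FPKM (SD, n = 3 in each group), with a log2 fold change of -2.67 ± 0.44 (SE, adjusted p = 0.0402 by edgeR). EDNRB passed in all 15 other settings, whereas SOX10 lost its call when any library but normal replicate 1 was left out (adjusted p up to 0.226 by edgeR). OTX2, which acts with MITF in the pigment epithelium and is also used by photoreceptors and bipolar cells, had a log2 fold change of 0.03 (adjusted p = 0.857 by edgeR). TFEC, a relative of MITF, had 90, 131 and 31 reads in normal retina and 133, 226 and 230 in PVR retina. Its log2 fold change was 1.31 (SE 0.50, adjusted p = 0.195 by edgeR). KIT, a receptor of melanocytes that some retinal neurons also carry, had a log2 fold change of -0.48 (adjusted p = 0.107 by edgeR).

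Of 48 listed pigment epithelial genes of other functions, 46 were matched and tested (STRA6 is in the visual cycle list too), of which 0 rose, 2 fell and 44 did not pass, with a median log2 fold change of -0.05. SLC16A3, a lactate transporter, fell from 22.4 ± 3.06 to 11.2 ± 1.93 FPKM (SD, n = 3 in each group), a log2 fold change of -1.07 (adjusted p = 0.0359 by edgeR). VEGFA, the vascular growth factor, fell from 74.0 ± 6.94 to 51.2 ± 2.61 FPKM (SD, n = 3 in each group), a log2 fold change of -0.61 (adjusted p = 0.0394 by edgeR). Neither is made by the epithelium alone. Leaving out normal replicate 1, normal replicate 2, PVR replicate 1 or PVR replicate 2 ended both calls, and leaving out PVR replicate 3 that of VEGFA (adjusted p up to 0.177 for SLC16A3 and 0.225 for VEGFA by edgeR). SLC16A8, the lactate transporter of its basal membrane, had a log2 fold change of -1.61 ± 0.41 (SE, adjusted p = 0.0926 by edgeR). STRA6, the receptor through which retinol is taken up, had -1.504 (SE 0.37, adjusted p = 0.087 by edgeR). The groups did not overlap for either gene. Each had an adjusted p under 0.05 in 2 of the 15 other settings, DESeq2 and edgeR without normal replicate 3. The most abundant genes of the list, CST3 and ABCA4, are not made by the epithelium alone either and had log2 fold changes of -0.06 and -0.10 (adjusted p = 0.873 and 0.494 by edgeR).

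The members did not share a single pattern over the 6 libraries. TTR, TYRP1, TYR and MITF had the order of RPE65 within the normal group, with normal replicate 2 highest and normal replicate 3 lowest in each. DCT, MLANA, BEST1, SERPINF1, SLC45A2 and PMEL did not. The order was not kept within the PVR group. There RPE65 was highest in PVR replicate 2, whereas TTR, TYRP1 and TYR were lowest in it and MITF was highest in PVR replicate 3. How many of all genes had the normal order of RPE65 was not counted. DCT was highest in PVR replicate 3, then in normal replicate 3 and PVR replicate 1. OPTC, which encodes opticin, a vitreous protein made by the ciliary epithelium, had the same 3 libraries on top in the same order, with 2181, 1501 and 809 reads, and stood at 29, 32 and 106 in PVR replicate 2, normal replicate 2 and normal replicate 1. SLC13A3 and EFEMP1, 2 genes of the pigment epithelial list, were also highest in these 3 libraries, PVR replicate 3 first. SLC13A3 had 234, 279 and 466 reads in normal retina and 723, 166 and 1652 in PVR retina. EFEMP1 had 322, 345 and 672 reads in normal retina and 2322, 454 and 5926 in PVR retina. These 3 genes were singled out after their values were seen, and the part of ciliary epithelium in the spread of DCT was not tested.

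**Figure D4:**
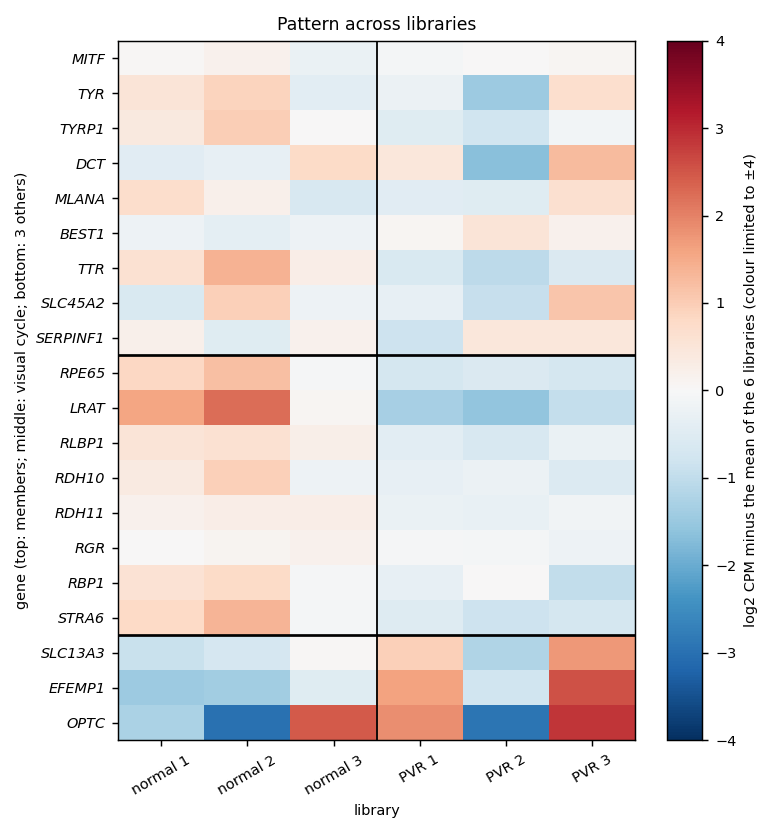
Log2 CPM of each gene in each library minus its mean over the 6 libraries, for the 9 members with enough counts, 8 visual cycle genes, and SLC13A3, EFEMP1 and OPTC. Red marks libraries above the mean and blue those below. The visual cycle genes, TTR and TYRP1 change at the line between the groups, whereas DCT shares its red libraries, normal 3, PVR 1 and PVR 3, with OPTC.

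The genes whose log2 CPM over the 6 libraries was most like that of a member were found among 13554 others with a symbol and at least 10 reads on average, as a description without a test. For TTR they were DMWD and FBXO22 (Pearson r = 0.999 and 0.996), for TYRP1 SIN3B and ENTREP3 (r = 0.995 for both), for DCT PGER8 and MSRA (r = 0.99 for both), and for MITF FNTB and BEND3 (r = 0.988 and 0.987). No listed pigment or visual cycle gene was among the 2 closest genes of any member. With only 2 of 13554 genes kept for each, this says little about the members. The 6 points share library, depth and condition.

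Markers of other cells that a retina sample may hold moved in several ways. Of the neural crest melanocyte genes, FOXD3 was at 0 in all samples and PAX3 at 0 to 4 reads, while 8 of 9 were matched and 5 were tested (EDNRB rose, SOX10 fell). The summed FPKM of the list was 12.0 to 15.4 in normal retina and 43.7 to 54.5 in PVR retina. EDNRB was most of the sum in PVR retina, with a mean of 43.5 FPKM, but not in normal retina, with 6.13 FPKM. The ciliary and iris list, with 8 of 9 matched, had summed FPKM values of 11.8 to 42.2 in normal retina and 16.7 to 72.9 in PVR retina, and 0 of 7 tested genes passed the threshold. Its most abundant genes were OPTC and WFDC1, with log2 fold changes of 0.88 and 1.40 (adjusted p = 0.756 and 0.0947 by edgeR). The stroma list, all 8 matched, had a median log2 fold change of 1.14 and summed FPKM values of 50.9 to 65.6 against 83.9 to 132, with 0 of 8 past the threshold. Its LUM and OGN had log2 fold changes of 0.51 and 0.80 (adjusted p = 0.122 and 0.0757 by edgeR). The macrophage list, all 8 matched, was at 7.77 to 12.8 in normal retina and 33.9 to 37.1 in PVR retina, with no overlap for any of the 8, and GPNMB passed the threshold. GPNMB, a relative of PMEL that is induced in phagocytes, rose by 2.96 on the log2 scale (adjusted p = 0.00141 by edgeR), and AIF1 had 0.86 (adjusted p = 0.265 by edgeR), or 0.52 without normal replicate 3. In the vessel list, with 7 of 8 matched and summed values of 62.3 to 75.7 against 76.6 to 81.4, VWF and CDH5 fell, with log2 fold changes of -5.02 and -6.86 (adjusted p = 0.0119 and 0.0301 by edgeR; CDH5 had 0, 0 and 1 reads in PVR retina), whereas the abundant KDR and RGCC had log2 fold changes of 0.17 and -0.42 (adjusted p = 0.435 and 0.587 by edgeR). KDR was at 0.0641 without normal replicate 3, and RGCC at -0.13 without PVR replicate 2 and -0.95 without PVR replicate 3. Of the 8 Mueller glia genes, whose summed FPKM was 997 to 1308 against 989 to 1039, GLUL, which makes glutamine, fell by 1.11 on the log2 scale (adjusted p = 0.0125 by edgeR), as did RLBP1, and VIM had -0.17 (adjusted p = 0.586 by edgeR). The lens list, with 9 of 10 matched, had a median log2 fold change of -5.62, and 0 of 8 tested genes passed. Its most abundant genes, CRYAA and CRYBA1, turned from log2 fold changes of -4.78 and -6.44, which did not pass, to 4.40 and 3.91 without normal replicate 2, which did (adjusted p = 0.00182 and 0.0222 by edgeR). For the 17 neural retina genes the median log2 fold change was -0.25 and 0 of them passed. The fold change was negative for 16 and positive for 1, and SAG had -0.10 (adjusted p = 0.685 by edgeR). In 5 of the 17 every PVR sample lay below every normal sample, against 14.6% of all genes tested, and in 0 above. Without PVR replicate 1 the adjusted p by edgeR was 0.106 for VWF and for GLUL and 0.188 for CDH5, and CDH5 also lost its call without normal replicate 2 or PVR replicate 2. GPNMB passed in all 15 other settings. The part of any of these cells in the levels of the 10 members was not tested.

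**Figure D5:**
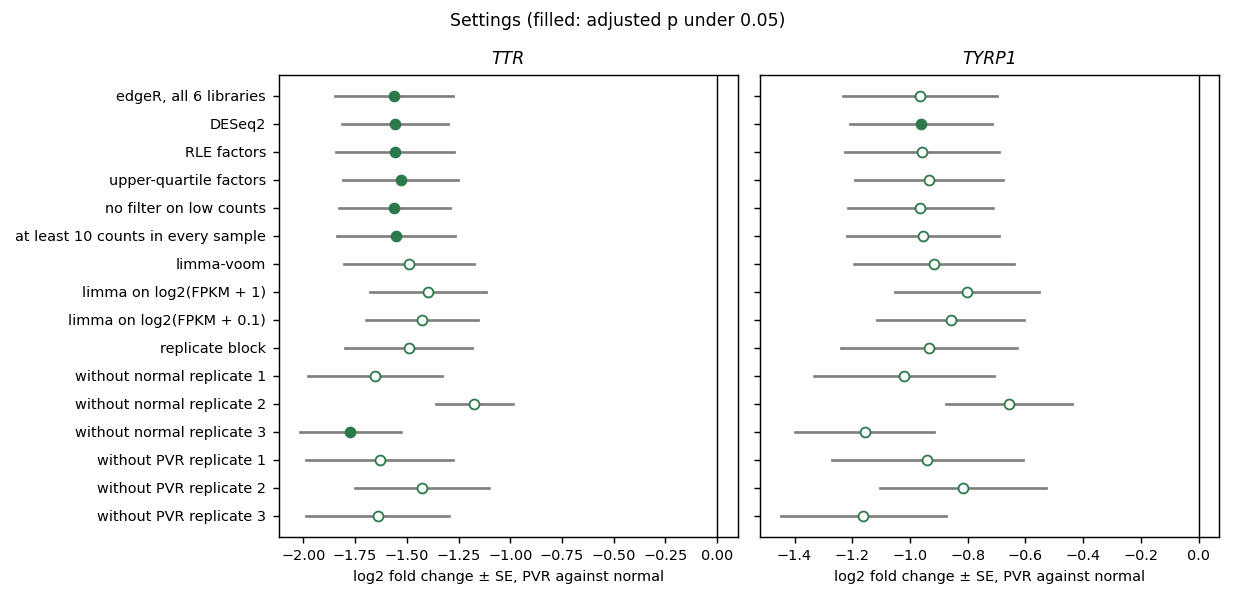
The log2 fold change of TTR and TYRP1 with its standard error under each test and with each library left out; filled points have an adjusted p under 0.05. TTR ranges from -1.77 to -1.17 and TYRP1 from -1.16 to -0.66, and all points of both genes lie below 0.

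Both genes kept their direction in all 15 other settings. TTR was under an adjusted p of 0.05 in 6 of these and TYRP1 in 1, DESeq2. The largest loss of size came without normal replicate 2, the library with the lens reads, and the smallest adjusted p of TTR among the tests with a library left out came without normal replicate 3, 0.0189.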

How the data were processed

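Polyadenylated RNA was sequenced from retina of 3 normal and 3 PVR samples, and these were grouped by their titles. The authors cleaned reads with fastp per the labels, aligned them to OryCun2.0 with HISAT2, and deposited raw counts per gene from htseq-count. The authors also deposited FPKM values, which equal the counts over gene length and total counts (largest relative difference in length 4.24e-09). The annotation release and strand setting are not given in the sources used here. Repeated or overlapping gene models were not examined.

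The main test used edgeR 4.0.16 under R 4.3.3 (default low-count filter, TMM, quasi-likelihood test with condition as its term). The standard error is the log2 fold change divided by the square root of F. DESeq2 1.42.0, limma 3.58.1 on voom weights and on log2(FPKM + 1) or log2(FPKM + 0.1), RLE and upper-quartile factors, other filters, a replicate block and each library left out were the alternatives. On simulated counts for the 18697 genes, edgeR recovered 118 of 200 changed genes with 15 false calls among 133, and DESeq2 143 with 54 among 197. All planted changes were larger than the one fitted for TYRP1, and no library was made to stand apart as normal replicate 2 does. The simulation therefore does not cover changes of that size or such a library.

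The members and the 12 further lists were chosen with earlier results of these data known. Named genes were all members, list genes with an adjusted p under 0.05, the 2 genes of each list with the highest mean FPKM, and for each member the 2 genes of highest Pearson r over log2 CPM (prior count 2). RPE65, STRA6, SLC16A8, TFEC, KIT, OCA2, SLC24A5, SLC13A3 and EFEMP1 were named after their values were seen, and 2 genes that the rule names are not reported here. Of 181 list genes, 170 were matched by symbol or through the gene identifiers of RefSeq's mOryCun1.1 annotation, used for names only. Libraries of a group differed by a chi-square of 19.6 to 185 per degree of freedom, far above counting noise. Deviations from the group mean had correlations of -0.0129, 0.0734 and 0.0417 between same-numbered samples, against -0.0828 to 0.0427 between samples of different number. The labels do not give the numbers as pairs, and they were not taken as pairs, but these values cannot exclude a pairing. Figures were drawn with matplotlib 3.10.9.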

Additional observations from a re-analysis of the deposited data

How the results depend on the processing

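With 3 samples a group, depth was not the main limit for TTR and TYRP1, but SERPINF1, SLC45A2, MLANA and PMEL rested on fewer than 100 reads in each library. Past both thresholds were 188 genes, against 807 with DESeq2, 49 on log2(FPKM + 1), 96 on log2(FPKM + 0.1) and 82 with the replicate block, and from 22 to 436 with a library left out. The members with an adjusted p under 0.05 were 1 (TTR), 2 with DESeq2 (TTR and TYRP1), and 0 with limma-voom, on either FPKM scale and with the replicate block. With a library left out there were 0 or 1, and TTR remained called only without normal replicate 3. Its adjusted p by edgeR was 0.116 without normal replicate 1, 0.0772 without normal replicate 2, 0.227 without PVR replicate 1, 0.127 without PVR replicate 2 and 0.0572 without PVR replicate 3. The counts of members past both the p and the fold threshold were the same except that DESeq2 gave 1. The replicate block, whose numbers the labels do not give as pairs, gave TTR a log2 fold change of -1.49 (adjusted p = 0.114 by edgeR). Some named genes outside the members were not called by edgeR but had an adjusted p under 0.05 by DESeq2. These were RPE65, STRA6, SLC16A8, EFEMP1, TFEC, KIT, MREG, LUM, OGN and WFDC1.

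Directions turned for genes that were not called with all libraries, and CRYAA and CRYBA1 were called in the turned direction without normal replicate 2 (adjusted p = 0.00182 and 0.0222 by edgeR). With a library left out, log2 fold changes ranged from -0.107 to 0.107 for MITF, -0.35 to 0.86 for DCT, -0.68 to 0.18 for MLANA, -0.87 to 0.68 for SLC45A2, -0.0494 to 0.48 for SERPINF1, -0.10 to 3.82 for OPTC, -5.36 to 4.40 for CRYAA, -7.02 to 3.91 for CRYBA1, -0.14 to 0.13 for MYO7A, -0.0135 to 0.0770 for OTX2, -0.29 to 0.0543 for VIM, -0.17 to 0.0461 for SAG and -0.26 to 0.10 for CST3. The direction of SLC45A2 also turned with limma-voom (-0.0182), on log2(FPKM + 0.1) (-0.0011) and with the replicate block (-0.0447). That of MYO7A turned with RLE factors (0.0002), upper-quartile factors (0.0259), at least 10 counts in every sample (0.0046), and on log2(FPKM + 1) (0.0449) and log2(FPKM + 0.1) (0.0456). For the lens gene CRYAA the direction turned with limma-voom (0.8339), on log2(FPKM + 1) (0.7903), on log2(FPKM + 0.1) (0.8900) and with the replicate block (2.89), and for CRYBA1 with the replicate block (2.42); normal replicate 2 holds most of their reads. The cause of the other turns was not tested. Without PVR replicate 2 the log2 ratio of TTR to RPE65 was 0.0164. With LRAT in place of RPE65, chosen after seeing the data, the log2 ratios moved from -0.18 to 1.10 for TTR, from 0.38 to 1.66 for TYRP1, from 0.64 to 1.91 for TYR, from 1.34 to 2.62 for DCT, from 1.33 to 2.61 for MITF, from 1.84 to 3.12 for BEST1 and from 1.13 to 2.41 for MLANA. With all libraries kept, the calls of SOX10, SLC16A3, VEGFA and HPS3 were lost on both FPKM scales and with the replicate block, those of SOX10 and HPS3 also with limma-voom, that of VWF with limma-voom and on both FPKM scales, that of CDH5 on both FPKM scales and that of GLUL on log2(FPKM + 1).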
